A study of Homo sapiens with 6 samples.

Results

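The genes described here encode ubiquitin and the proteins that bring ubiquitin-tagged clients to the proteasome. They are the polyubiquitin gene UBB, the AN1 zinc finger genes ZFAND2A, ZFAND2B and ZFAND5, the ATPase gene VCP with its cofactors NPLOC4 and UFD1L, and the ubiquilin genes UBQLN1 and UBQLN2. They were picked by name, and all 9 were found among the 26485 gene rows of the count table and were among the 12854 genes with enough reads to be tested. RNA was sequenced from THP1, a line of human acute monocytic leukemia cells, after 6 h with Withaferin A (WFA), a steroidal lactone, or with its vehicle DMSO. Cells of both groups grew in medium with serum, penicillin and streptomycin, no genetic change is named for either group, and each group had 3 libraries, numbered by 3 independent experiments. As a model they are 1 established line, read at 1 time and 1 concentration. The labels state a WFA concentration of 1 mM, whereas the text of the study gives 1 μM.

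Cells mark damaged or unneeded proteins with chains of ubiquitin. VCP, a hexameric ATPase also called p97, pulls such proteins out of membranes and complexes, and the pair formed by NPLOC4 and UFD1 hands it the ubiquitylated client. Ubiquilins bind ubiquitin chains at one end and the proteasome at the other, and the ZFAND proteins act around VCP and the proteasome when proteins misfold. Polyubiquitin genes carry head-to-tail copies of the ubiquitin coding unit and are textbook stress genes.

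The libraries held between 11006035 and 13872810 counted reads, and each gene of the set had between 124 and 8833 reads in every library, so none was near the detection limit. Expression is given as CPM, a gene's reads scaled to a fixed library size after TMM correction, which is a share of the sequenced RNA and cannot tell a change in RNA per cell from a change in the other transcripts. Of 10 markers of the monocytic lineage, 9 were tested, with 1 higher and 5 lower, and ELANE had no read in any library. Their log2 fold changes ran from -1.22 to 0.37, with a median of -0.34. Summed levels in this paragraph are CPM on total counts without TMM correction, unlike the CPM of single genes. The summed level of these markers was 2762 to 3282 CPM with DMSO and 2301 to 3045 CPM with WFA. Most of it came from LYZ, which did not pass the threshold, at 1823 CPM with DMSO and 1764 CPM with WFA. Of 10 markers of other lineages, 7 stayed under 10 reads in each library, 2 of these had no read at all, and the summed level of the list was 364 to 408 CPM with DMSO and 309 to 325 CPM with WFA, nearly all from PECAM1. Heat shock genes served as a reference for the treatment, and 10 of 10 were higher with WFA, with a median log2 fold change of 2.70 and a summed level of 8020 to 10233 CPM with DMSO and 36538 to 42925 CPM with WFA. The smallest p-values among them belonged to BAG3, HSPH1, DNAJB1 and HSPE1, with log2 fold changes between 1.92 (HSPE1) and 4.29 (BAG3). The part of the markers and of the heat shock genes in the results below was not tested.

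Of the 9 genes, 8 were higher with WFA and none was lower at an adjusted p-value under 0.05 in the edgeR quasi-likelihood test, and 0 were lower at an unadjusted p-value under 0.05 or in DESeq2. Among all genes tested 25.8% were higher and 24.7% lower by the same rule. ZFAND2A rose by far the most, followed by UBB and ZFAND2B near 2-fold, while NPLOC4, UBQLN1, VCP, ZFAND5 and UFD1L rose by 1.59-fold to 1.23-fold. UBQLN2 did not pass the test, with a fold of 0.998. The median log2 fold change of the set was 0.47, against 0.02 for all genes tested. For the 8 called genes every WFA library lay above every DMSO library, which was seen for 29.6% of the tested genes, and 28.5% had every WFA library below. With 3 libraries against 3 the exact two-sided permutation test, which ignores pairs, gives p = 0.1 for each of these 8 genes, the smallest value it allows. Within same-numbered pairs of libraries the smallest possible exact p is 0.25.

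**Figure D1:**
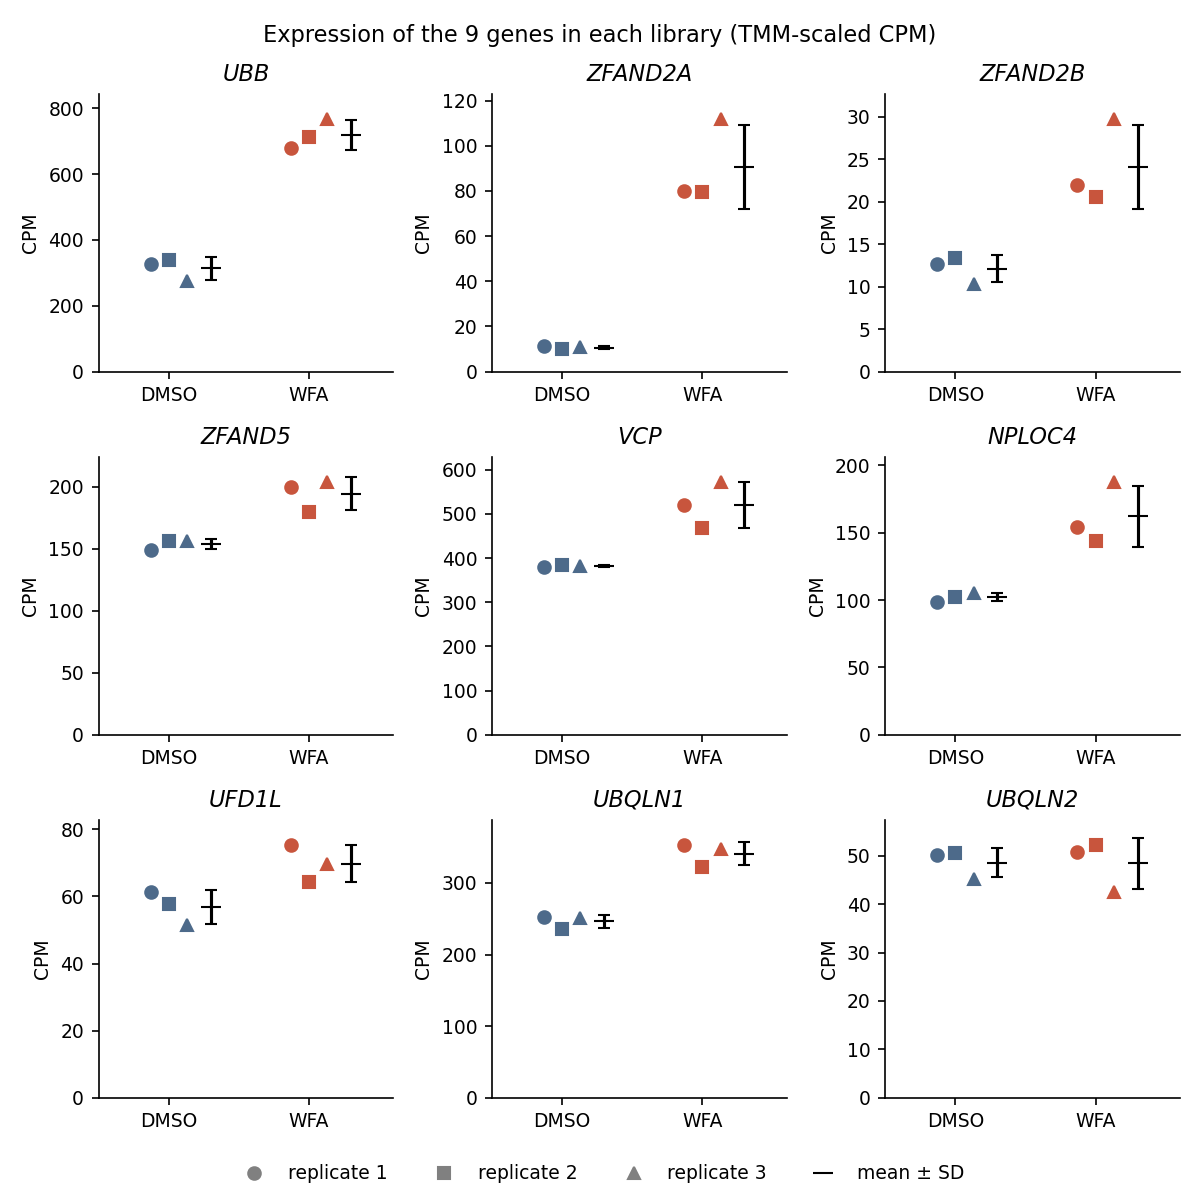
Expression of each gene in the 6 libraries, in CPM on a linear axis that starts at 0, with one panel per gene, symbols for the replicate number and bars for the mean ± SD (n = 3 per group). The WFA points lie above the DMSO points for every gene except UBQLN2, and ZFAND2A goes from about 10.6 to 90.4 CPM.

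Promoter windows from RefSeq (GRCh38.p14, from 250 bases before to 50 bases after the annotated start) were found for 8 of the 9 genes, and UFD1L had none. They were searched on both strands for the heat shock element, the site of HSF1, with 3 units (GAANNTTCNNGAA or TTCNNGAANNTTC) or with 2 units (GAANNTTC or TTCNNGAA, which the 3-unit form contains), and for the core of the antioxidant response element (TGACNNNGC), the site of NRF2 and its relatives. The 3-unit element was in none of the 8 windows, and in 0.49% of all 35116 windows. The 2-unit element was in the ZFAND2A window only, 1 of 8, and in 13.5% of all windows. Other VCP cofactors, described below, had it in 7 of 23 windows, among them genes higher, lower and not past the threshold. It was in 0 of 3 windows of other AN1 genes, 0 of 7 of shuttle and triage genes and 0 of 8 of activation and recycling genes. The antioxidant core was in 6 of 8 windows, namely those of UBB, ZFAND2A, ZFAND5, VCP, UBQLN1 and UBQLN2, and in 13.3% of all windows. Among the related genes described below, it was in 3 of 23 windows of other VCP cofactors, 4 of 8 of ubiquitin activation and recycling genes, 1 of 3 of other AN1 genes and 0 of 7 of shuttle and triage genes. In the heat shock reference, 4 of 10 genes had the 3-unit element in at least 1 listed window, 7 of 10 the 2-unit element and 1 of 10 the antioxidant core. The matches of DNAJB1, HSP90AA1 and HSPD1 lie in windows other than the first listed. Among the 9 genes, the table holds more than 1 start for UBB, ZFAND5 and NPLOC4, and related or reference genes can also have more than 1. In every list a gene was counted when any of its windows held the motif. The shares of all windows are per single window, so they are not a like measure for genes with more than 1 start. Apart from UBQLN2, the first listed start lies inside the outermost GENCODE span of the gene, far inside for NPLOC4 and ZFAND2B, so other annotated starts were not searched here. UBQLN2 holds 2 matches to the antioxidant core, and no match was found for ZFAND2B and NPLOC4, in windows that lie far inside their annotated spans. The part of the antioxidant core in any change was not tested. The share of all windows was not matched to these genes for base composition.
The 250 bases before the first listed start are shown for the genes with the largest rises, for VCP and for UBQLN2, 5′ to 3′ on the gene's strand. Capitals mark matches to the 2-unit heat shock element and to the antioxidant core. In ZFAND2A the antioxidant core spans positions -212 to -204 and the heat shock element -171 to -164, counted back from the start. The match of UBB lies after the start, at 22 to 30, and is not shown.
ZFAND2A (chr7:1160197-1160446, minus strand): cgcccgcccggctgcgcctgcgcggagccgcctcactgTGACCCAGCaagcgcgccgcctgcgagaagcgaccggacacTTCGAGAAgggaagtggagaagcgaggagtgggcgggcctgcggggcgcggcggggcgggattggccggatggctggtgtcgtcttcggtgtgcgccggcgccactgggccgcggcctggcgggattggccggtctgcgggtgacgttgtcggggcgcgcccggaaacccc
UBB (chr17:16381040-16381289, plus strand): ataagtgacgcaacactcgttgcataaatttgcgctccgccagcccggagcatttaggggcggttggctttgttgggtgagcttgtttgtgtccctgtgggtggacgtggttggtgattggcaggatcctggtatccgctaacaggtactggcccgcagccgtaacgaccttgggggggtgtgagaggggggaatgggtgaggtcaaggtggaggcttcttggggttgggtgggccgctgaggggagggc
VCP (chr9:35072626-35072875, minus strand): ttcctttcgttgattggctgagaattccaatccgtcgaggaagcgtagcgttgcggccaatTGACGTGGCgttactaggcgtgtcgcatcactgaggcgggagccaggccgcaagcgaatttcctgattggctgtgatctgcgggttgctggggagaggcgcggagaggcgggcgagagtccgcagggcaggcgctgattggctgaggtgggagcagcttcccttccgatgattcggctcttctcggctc
UBQLN2 (chrX:56563377-56563626, plus strand): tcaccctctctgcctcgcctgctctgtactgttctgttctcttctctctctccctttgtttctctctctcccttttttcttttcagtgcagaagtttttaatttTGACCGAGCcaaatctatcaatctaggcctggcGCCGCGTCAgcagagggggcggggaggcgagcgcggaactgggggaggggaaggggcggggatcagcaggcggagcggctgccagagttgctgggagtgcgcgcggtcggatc

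UBB is one of the polyubiquitin genes (chromosome 17, 16380798 to 16382745, plus strand, GRCh38). It had 328, 338 and 275 CPM in DMSO replicates 1, 2 and 3, and 679, 711 and 768 CPM in the WFA replicates. The lowest WFA library was 2.01 times the highest DMSO library. The means were 313 ± 33.7 and 719 ± 44.9 CPM (SD, n = 3 each), a 2.29-fold rise (log2 fold change 1.20, standard error 0.10, edgeR adjusted p = 1.87e-07). The 95% confidence interval of the fold ran from 1.98 to 2.66. Of the 50-base stretches of its annotated transcripts, 26.4% also occur in other genes, mostly in the pseudogene UBBP4, and 359 bases of an exon overlap an antisense RNA, so part of its reads could have been assigned elsewhere by the counting, whose handling of such reads is not given in the sources used here.

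The AN1 zinc finger genes rose by 1.26-fold to 8.51-fold. ZFAND2A, also known as AIRAP, encodes an arsenite-inducible protein that binds the proteasome (chromosome 7, 1152071 to 1160759, minus strand). It had 11.2, 9.87 and 10.7 CPM with DMSO and 80.0, 79.4 and 112 CPM with WFA. The DMSO values were tightly grouped, and the WFA libraries stood at least 7.10 times above them, with replicate 3 the highest. The means were 10.6 ± 0.669 and 90.4 ± 18.6 CPM (SD, n = 3 each), an 8.51-fold rise with a 95% confidence interval of 6.88 to 10.5 (log2 fold change 3.09, standard error 0.14, edgeR adjusted p = 6.25e-10). Its promoter window held a 2-unit heat shock element, as did 13.5% of all windows. The part of this motif in the rise was not tested. In the order of log2 fold changes over all tested genes it was number 72 from the top, and UBB was number 766.

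ZFAND2B, the paralog known as AIRAPL, which sits at the endoplasmic reticulum membrane (chromosome 2, 219195237 to 219209651, plus strand), started at a similar level. Its DMSO libraries had 12.7, 13.3 and 10.3 CPM and its WFA libraries 22.0, 20.6 and 29.8 CPM. The groups did not overlap, but replicate 3 was both the lowest of the DMSO and the highest of the WFA libraries. The fold was 1.98 with a 95% confidence interval of 1.57 to 2.50 (log2 fold change 0.99, standard error 0.16, edgeR adjusted p = 0.000103).
ZFAND5, whose product binds the proteasome and stimulates it (chromosome 9, 72351425 to 72365235, minus strand), was expressed more strongly and rose little. It had 149, 156 and 156 CPM with DMSO and 199.6, 179 and 204 CPM with WFA. Although the rise was 1.26-fold, it was larger than the spread between replicates (95% confidence interval 1.12 to 1.43, log2 fold change 0.34, standard error 0.08, edgeR adjusted p = 0.00368).

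VCP itself (chromosome 9, 35056064 to 35073249, minus strand) had nearly the same level in the DMSO libraries, with 380.3, 384 and 382 CPM. With WFA it had 519.7, 469 and 573 CPM. The WFA libraries varied more among themselves than the DMSO libraries but stayed above them. The rise was 1.36-fold with a 95% confidence interval of 1.19 to 1.56 (log2 fold change 0.45, standard error 0.09, edgeR adjusted p = 0.000965). NPLOC4, the adaptor subunit that binds ubiquitin chains (chromosome 17, 81556887 to 81648465, minus strand), had 98.8, 102 and 105 CPM with DMSO and 155, 144 and 188 CPM with WFA. No library of one group overlapped the other, and the rise was 1.59-fold (95% confidence interval 1.37 to 1.84, log2 fold change 0.67, standard error 0.10, edgeR adjusted p = 5.83e-05).
UFD1L, now named UFD1, encodes the partner subunit of NPLOC4 (chromosome 22, 19449910 to 19479215, minus strand). It had 61.4, 57.8 and 51.4 CPM with DMSO and 75.4, 64.3 and 69.7 CPM with WFA. This was the smallest of the called rises, and the lowest WFA library was only 1.05 times the highest DMSO library. The fold was 1.23 with a 95% confidence interval of 1.06 to 1.42 (log2 fold change 0.29, standard error 0.10, edgeR adjusted p = 0.0207). The call was lost without DMSO replicate 3 (edgeR adjusted p = 0.0907, log2 fold change 0.23), without WFA replicate 1 (edgeR adjusted p = 0.0804, log2 fold change 0.24) and when libraries were scaled by total counts (edgeR adjusted p = 0.0821, log2 fold change 0.21), within a range of 0.00236 to 0.0907 over all alternatives that test against no change. An antisense RNA overlaps 196 bases of its exons, and reads of the pair cannot be told apart because the library kit does not mark strand.

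Of the ubiquilin paralogs, which carry clients from ubiquitin ligases to the proteasome, 1 passed the test. UBQLN1 (chromosome 9, 83659963 to 83708203, minus strand) had 253, 236 and 251 CPM with DMSO and 353, 323 and 347 CPM with WFA. Its rise was 1.38-fold (95% confidence interval 1.22 to 1.57, log2 fold change 0.47, standard error 0.08, edgeR adjusted p = 0.000298). It was also the most even of the 9 genes among experiments, with a log2 difference of 0.48, 0.45 and 0.47 in the pairs of replicates 1, 2 and 3. UBQLN2, an intronless gene in which variants cause a familial form of amyotrophic lateral sclerosis (chromosome X, 56563639 to 56567868, plus strand), had 50.1, 50.5 and 45.2 CPM with DMSO and 50.7, 52.3 and 42.4 CPM with WFA. These groups overlapped, and replicate 3 was lowest in each. No difference was detected (log2 fold change -0.0026, standard error 0.10, edgeR adjusted p = 0.985, exact two-sided permutation p = 1). The 95% confidence interval of its fold, 0.857 to 1.16, bounds the change these libraries allow in either direction.

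**Figure D2:**
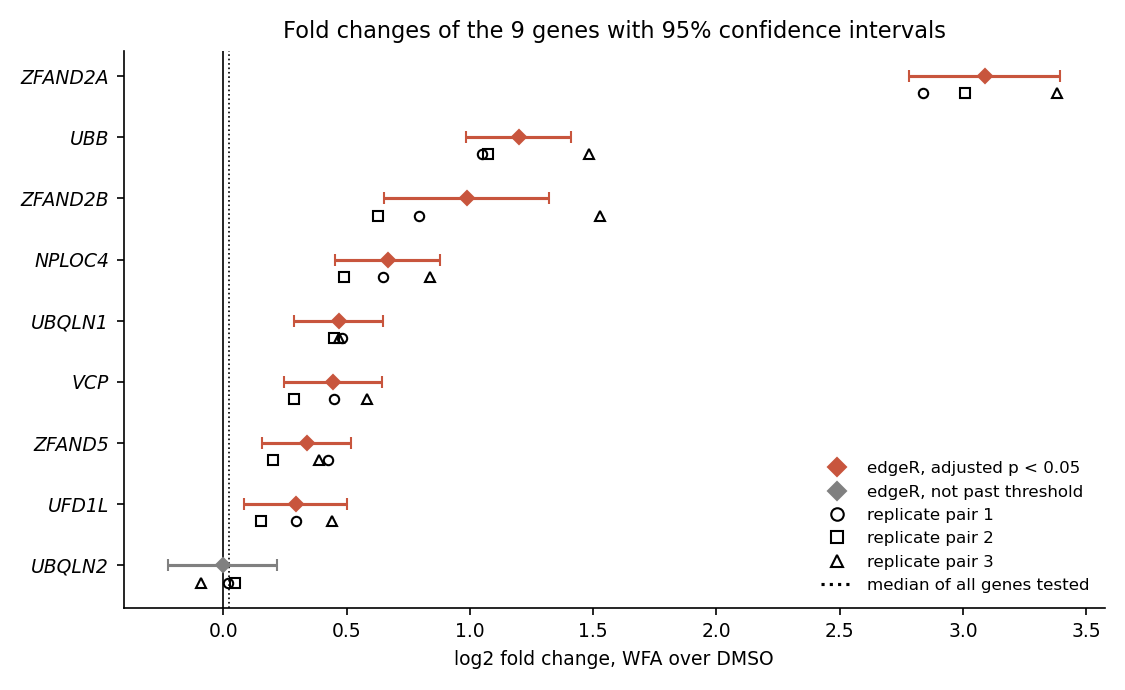
Log2 fold change of WFA over DMSO for each gene, with diamonds for the edgeR estimate, bars for its 95% confidence interval, open symbols for the difference in each same-numbered pair of libraries, and a dotted line at the median of all genes tested (0.02). All intervals lie above 0 except that of UBQLN2, and pair 3 gives the largest difference for 6 of the 8 called genes.

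The same-numbered pairs of libraries gave differences of unequal size. Among the 8 called genes the WFA library of replicate 3 was the highest for 6 and that of replicate 2 the lowest for 7. The median log2 difference of these 8 genes was 0.56, 0.47 and 0.71 in pairs 1, 2 and 3. The largest spread was that of ZFAND2B, with 0.80, 0.63 and 1.53 in the 3 pairs, and ZFAND2A had 2.84, 3.01 and 3.38. Each called gene was higher with WFA in each of the 3 pairs. Among the 10 reference heat shock genes, WFA replicate 3 was the highest for 4, replicate 1 for 4 and replicate 2 for 2. The orders among replicates were counted after the values were seen.

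Levels of different genes were compared per kilobase of annotated exon. With DMSO the order was UBB (194 ± 20.8 CPM per kb), VCP (87.4 ± 0.404), UBQLN1 (59.9 ± 2.22), UFD1L (31.4 ± 2.79), ZFAND5 (25.5 ± 0.677), NPLOC4 (12.1 ± 0.372), UBQLN2 (11.5 ± 0.705), ZFAND2A (9.35 ± 0.590) and ZFAND2B (5.38 ± 0.702) (SD, n = 3). In that order the ranges overlapped for NPLOC4 and UBQLN2 but not for other neighbours. With WFA, ZFAND2A moved from number 8 to number 4, at 79.8 ± 16.4 CPM per kb, where its range overlapped that of UBQLN1 at 82.8 ± 3.94. UBB stayed first at 445 ± 27.8 CPM per kb, and UBQLN2 at 11.5 ± 1.25 and ZFAND2B at 10.7 ± 2.20 overlapped at the bottom. Exon lengths are those of GENCODE 29 and may differ from the annotation used for counting.

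Ratios of 2 genes within a library do not depend on how libraries are scaled. The read ratio of ZFAND2A to its paralog ZFAND2B was 0.884, 0.740 and 1.04 in the DMSO libraries and 3.63, 3.85 and 3.76 in the WFA libraries, so that the geometric mean ratio was 4.26 times higher (log2 difference 2.09, standard error 0.14). The ratio of ZFAND2A to ZFAND5 was 6.65 times higher (log2 difference 2.73, standard error 0.15). For both ratios the WFA and DMSO libraries were separated by more than the range within either group.
The ratio of UBQLN2 to UBQLN1 was 0.198, 0.214 and 0.180 with DMSO and lower, at 0.144, 0.162 and 0.122, with WFA (log2 difference -0.47, standard error 0.14). Between the subunits of the VCP adaptor, NPLOC4 over UFD1L was 1.61, 1.77 and 2.04 with DMSO and 2.05, 2.24 and 2.69 with WFA (log2 difference 0.36, standard error 0.15). The lowest WFA ratio, 2.049, was barely above the highest DMSO ratio, 2.041. NPLOC4 over VCP gave a log2 difference of 0.22 (standard error 0.05). For these 5 ratios the groups did not overlap, and the exact two-sided permutation p, without pairs, was 0.1. The value adjusted over the 6 ratios computed was also 0.1, which is as low as this unpaired test can go. How often other pairs of genes separate was not computed. Among single genes tested, 29.6% had every WFA library above every DMSO library and 28.5% had every WFA library below.

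**Figure D3:**
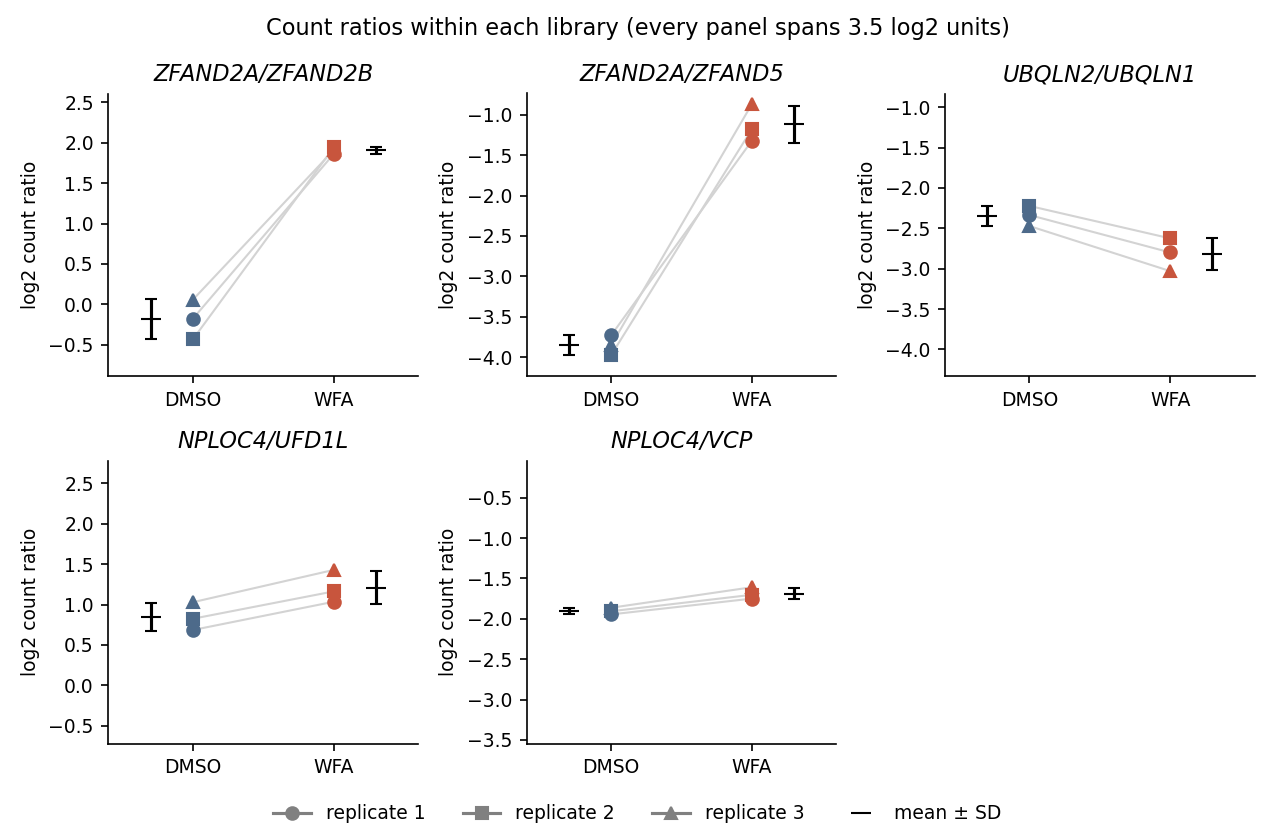
Log2 ratio of the read counts of 2 genes within each library, in 5 panels that each span 3.5 log2 units, with grey lines joining same-numbered libraries and bars for the mean ± SD (n = 3). The mean is higher with WFA by 2.09 and 2.73 log2 units for ZFAND2A over ZFAND2B and ZFAND5, by 0.36 for NPLOC4 over UFD1L and 0.22 for NPLOC4 over VCP, and differs by -0.47 for UBQLN2 over UBQLN1.

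RPS27A belongs to another kind of ubiquitin gene, in which a ubiquitin unit is fused to a ribosomal protein. It had 707 ± 71.0 CPM with DMSO and 728 ± 24.4 CPM with WFA (SD, n = 3 each), and the groups overlapped (log2 fold change 0.04, standard error 0.10, edgeR adjusted p = 0.744).

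The other 4 AN1 zinc finger genes gave 2 higher and none lower (0 lower at an unadjusted p-value under 0.05 and in DESeq2), with a median log2 fold change of 0.21. ZFAND6 rose from 45.5 ± 2.54 to 78.1 ± 5.07 CPM (log2 fold change 0.78, edgeR adjusted p = 5.8e-06) and ZFAND3 from 94.9 ± 3.06 to 134 ± 12.8 CPM (log2 fold change 0.50, edgeR adjusted p = 0.000284; SD, n = 3 each). ZFAND1 and ZFAND4 had log2 fold changes of -0.09 and -0.30 (edgeR adjusted p = 0.461 and 0.194). ZFAND2A thus had the largest fold of the 7 family members examined.

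Among 31 other cofactors and partners of VCP, 28 were tested, since UBXN10 and DERL3 had too few reads and SELS was not found under that symbol, and 10 of the tested genes were higher, 4 lower and 14 not past the threshold (median log2 fold change 0.10). The smallest p-value among those named here was that of SYVN1, a ubiquitin ligase of the endoplasmic reticulum that works with VCP in the disposal of misfolded proteins. It rose from 38.6 ± 3.56 to 68.3 ± 2.91 CPM (SD, n = 3 each, log2 fold change 0.82, edgeR adjusted p = 5.93e-06). UBXN7, which links VCP to cullin ligases, and UBE4B, which extends ubiquitin chains, both rose by 0.60 on the log2 scale (edgeR adjusted p = 9.47e-05 and 0.000144).
In the other direction, NGLY1, which strips sugars from misfolded glycoproteins, fell by 0.35 on the log2 scale (edgeR adjusted p = 0.00385). SPRTN, a protease for proteins crosslinked to DNA, fell by 0.32 (edgeR adjusted p = 0.0135) and lost its call without WFA replicate 3 (edgeR adjusted p = 0.0595, and up to 0.999996 in the test against a 1.5-fold change). The number of lower genes on this list rested on single libraries, since leaving out WFA replicate 3 gave 1, leaving out replicate 2 gave 2 and leaving out replicate 1 gave 6.

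The shuttle proteins related to ubiquilins and the genes that triage tail-anchored membrane proteins gave 2 higher and 1 lower among 10 tested of 13 (median log2 fold change -0.07). GET4, a subunit of the BAG6 triage complex, rose 1.78-fold (log2 fold change 0.83, edgeR adjusted p = 5.87e-05) and the co-chaperone gene SGTB from 42.6 ± 3.16 to 63.0 ± 5.36 CPM (log2 fold change 0.56, edgeR adjusted p = 0.000245; SD, n = 3 each). RAD23B, a shuttle with the same domain plan as the ubiquilins, fell from 221 ± 12.1 to 174 ± 12.4 CPM (log2 fold change -0.34, edgeR adjusted p = 0.0048). UBL4A stood at -0.25 on the log2 scale (edgeR adjusted p = 0.0551), and with the replicate block 3 genes of the list were lower. Without DMSO replicate 3 the number of lower genes was 2.
Among 7 tested genes for ubiquitin activation and recycling, 2 were lower and none was higher in edgeR or DESeq2, with 1 higher at an unadjusted p-value under 0.05. UCHL5, a deubiquitinase of the proteasome, fell from 168 ± 11.1 to 96.0 ± 15.3 CPM (log2 fold change -0.80, edgeR adjusted p = 2.37e-05) and UCHL3 from 56.1 ± 3.94 to 42.2 ± 3.75 CPM (log2 fold change -0.41, edgeR adjusted p = 0.00312; SD, n = 3 each). UBA1, the main ubiquitin-activating enzyme, stood at 0.19 on the log2 scale (edgeR adjusted p = 0.0731), was called with the replicate block (edgeR adjusted p = 0.0299) and without WFA replicate 1 (edgeR adjusted p = 0.0383), and USP14 stood at 0.18 (edgeR adjusted p = 0.137).

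**Figure D4:**
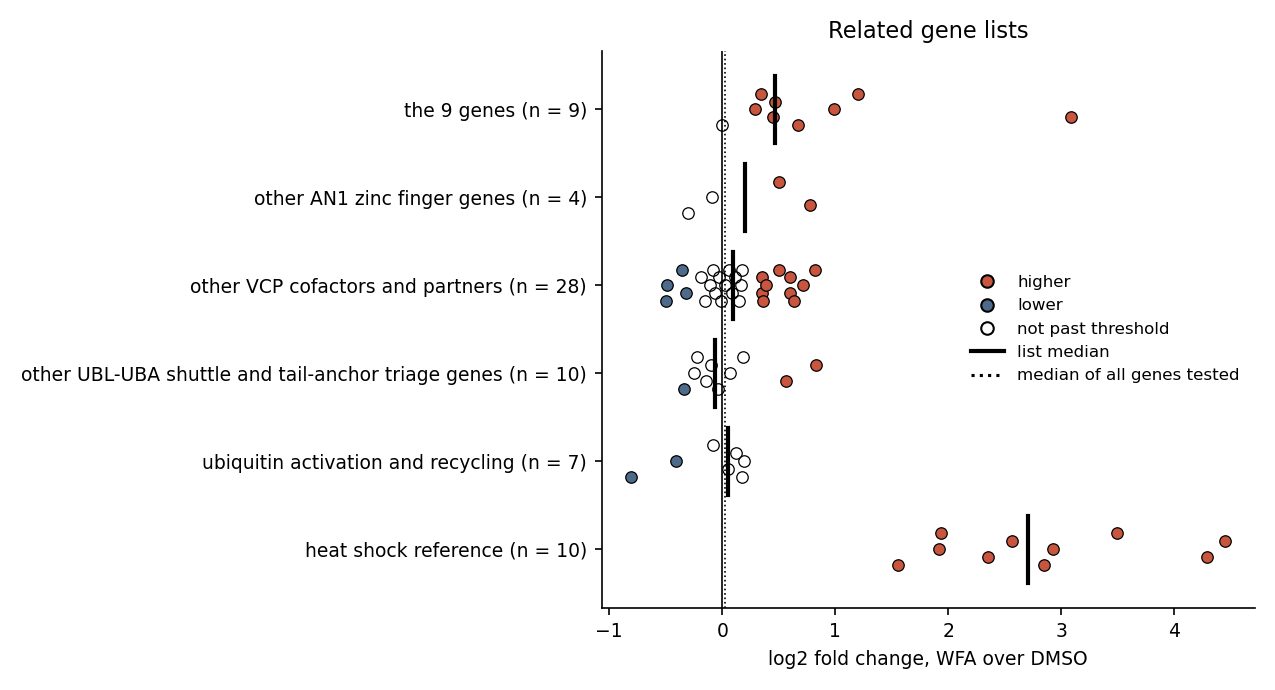
Log2 fold change of WFA over DMSO for every tested gene of 6 lists, with filled points past the edgeR threshold (red higher, blue lower), open points not past it, thick bars at each list's median and a dotted line at the median of all genes tested. The 9 genes lie between -0.0026 and 3.09 with a median of 0.47, while the medians of the 4 related lists lie between -0.07 and 0.21 and that of the heat shock reference at 2.70.

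The genes with the most similar profiles over the 6 libraries were found by the Euclidean distance between centred log2 CPM values among 9613 genes. For ZFAND2A these were DNAJB2, a co-chaperone with ubiquitin-interacting motifs (distance 0.23), CAP2 (0.39), HSPH1, a chaperone of the HSP110 family (0.41), ARG2 (0.41) and DUSP4 (0.41), all with log2 fold changes between 2.93 and 3.31. For UBQLN2, the gene with the lowest fold change of the set, they were TMEM14B, GAREM, STAU2, NDFIP1 and LYRM4, with distances of 0.07 to 0.10.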

How the data were processed

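Total RNA from 3 DMSO and 3 WFA cultures was sequenced with TruSeq RNA v2 libraries. The authors deposited whole-number read counts per gene symbol, which were used as given. The 6 scaled columns and the columns of the authors' own comparison (group means, fold changes, p-values, dispersions) in the same table were not used. The submitters' processing notes name bcl2fastq 2.19, Trimmomatic, Bowtie2, Picard, featureCounts, DESeq2 and the build hg38, without roles. The annotation and the treatment of multiply mapped reads are not given in the sources used here, so genes with similar copies are less certain.

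Counts were fitted with edgeR 4.0.16 in R 4.3.3 (TMM, filterByExpr with a minimum count of 10, quasi-likelihood F test, no block). Benjamini-Hochberg adjustment ran over all 12854 genes tested, with a threshold of 0.05. Standard errors are the log2 fold change divided by the square root of F. In counts simulated for this comparison over 12735 genes, 49.0% of genes changed 1.5-fold and 92% of those changed 2-fold were recovered. That simulation called 177 genes, far fewer than the 3311 higher and 3178 lower called in the data. Its threshold on unadjusted p-values was therefore stricter, and these shares do not give the recovery in the data. With 3 libraries per group, edgeR p-values set the difference between groups against the spread between these cultures, estimated with information from all genes. Ratios used raw counts plus 0.5 and exact permutation tests (scipy 1.17.1). Intervals cover the spread among these libraries only.

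Replicate numbers pair the samples. The labels give same-numbered libraries of both groups a shared code, and their deviations from the group means correlated at 0.22, 0.33 and 0.25 across genes, against -0.26 to 0.004 for libraries with different numbers. Alternatives were the replicate block, DESeq2 1.42.0, other scalings and filters, a robust fit, a test against a 1.5-fold change and leaving out each library. Gene positions and exon lengths come from GENCODE 29. The genes, lists and rules were chosen with earlier results of these data known. Besides the 9 genes, the text names, for each related list and the heat shock list, at most 4 genes by smallest p-value and at most 2 called genes against the list's majority, and the 5 nearest profiles of the genes with the highest and lowest fold change. Some related genes that this rule picks, with 1 ratio, are not reported here.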

Additional observations from a re-analysis of the deposited data

How the results depend on the processing

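With the replicate block, with DESeq2, with other scalings and filters and with the robust fit, 8 of the 9 genes were higher, except that UFD1L lost its call with total counts, which left 7. Leaving out 1 library gave 7 to 8. A test against a 1.5-fold change, a stricter question, left 3 (UBB, ZFAND2A and ZFAND2B). On the other lists, the test against a 1.5-fold change left 1 AN1 gene and 1 VCP cofactor higher, 0 VCP cofactors lower, 0 shuttle and triage genes higher and 0 lower, and 0 activation and recycling genes lower. The replicate block gave 3 shuttle and triage genes lower and 1 activation and recycling gene higher, and it moved no other count of called genes given here by over 1.5 times. Shuttle and triage genes lower numbered 2 with DESeq2 size factors and 3 with total counts. Without 1 library, the lower VCP cofactors numbered 1 to 6, the lower shuttle and triage genes 1 to 2 and the higher activation and recycling genes 0 to 1. The cause was not tested for these. The sign of UBQLN2 depended on the setting, with log2 fold changes of 0.00219 with upper-quartile scaling, 0.0113 with the stricter filter and -0.0597 to 0.0859 without 1 library. RPS27A had -0.0421 with total counts and -0.0148 to 0.11 without 1 library. None of these passed the threshold. The 5 ratios kept their sign with a pseudocount of 5, within pairs (smallest possible exact p = 0.25) and without each library. The effect of depth on the 9 genes, which had 124 to 8833 reads per library, was not tested. In counts simulated for this comparison over 12735 genes, 49.0% of 1.5-fold changes were recovered, at a stricter threshold on unadjusted p-values than in the data. That share therefore does not tell how large a change of UBQLN2 could be missed. The confidence interval of the UBQLN2 fold, 0.857 to 1.16, bounds its change, and a change within that interval may go undetected.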
